A study of Mus musculus with 7 samples.

Results

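The genes described here are the 10 that trim, branch and core-fucosylate N-glycans in the Golgi before galactose is added: the mannosidase genes Man1a, Man2a1 and Man2a2, the N-acetylglucosaminyltransferase genes Mgat1, Mgat2, Mgat3, Mgat4a, Mgat4b and Mgat5, and the core fucosyltransferase gene Fut8. They were taken by name from a fixed list and make up 10 of the 34932 genes to which the deposited transcripts were summed. They were measured by bulk RNA-seq in LT-HSCs, long-term haematopoietic stem cells, in 4 libraries labelled B4galt1 KO and 3 labelled WT. Per the labels, the KO mice carried the genotype B4-/- as a full knockout, and both groups had a mixed 129S1/C57Bl/6 background. The cells of both groups were sorted from flushed tibia and femur marrow after red cell lysis with a gate for lineage-negative cells bearing Sca-1, c-Kit and CD150 but not CD48. The age of the mice, the number of animals behind each library and any pooling are not given in the sources used here, so the p-values cover the spread among these libraries alone, which may be technical.

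N-glycans are built as a mannose-rich precursor in the endoplasmic reticulum, moved onto proteins, and remodelled in the Golgi. Man1a, with related alpha-mannosidases, trims mannose from the glycan, after which Mgat1 adds the first N-acetylglucosamine (GlcNAc). Man2a1 and Man2a2 then remove further mannose, Mgat2 starts the second antenna, and Mgat4a, Mgat4b and Mgat5 start additional antennae. Mgat3 adds the bisecting GlcNAc, which blocks further branching, and Fut8 adds a fucose to the innermost GlcNAc of the core. B4galt1 adds galactose to the antennae that these enzymes begin, so the comparison asks about the genes that act before it. In the blood system, N-glycans of this kind are carried by cytokine receptors, integrins and platelet glycoproteins.

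Fut8 was the gene of the group with the largest difference. Its RNA was 2.39-fold higher in the libraries labelled KO than in WT, every library labelled KO lay above every WT library, and the adjusted p of 0.0543 in edgeR's quasi-likelihood test just missed the threshold of 0.05. Man1a was the other gene whose groups did not overlap in CPM (counts scaled to a common library size), at 0.68 of the WT level in the libraries labelled KO, though they overlapped per transcript length, and it did not pass either (edgeR adjusted p = 0.172). The branching genes Mgat1, Mgat2, Mgat4a, Mgat4b and Mgat5 and the mannosidase genes Man2a1 and Man2a2 had groups that overlapped in CPM and intervals that span 0. Mgat3 had no read in any library.

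The libraries held between 24724079 and 34941390 estimated reads with the label KO and between 23508985 and 30325691 in WT. B4galt1 itself, the labelled target, was at 19.3, 14.9, 14.8 and 14.6 CPM in KO-labelled replicates 1 to 4, against 19.2, 24.4 and 11.3 CPM in WT replicates 1 to 3. Its log2 fold change of -0.20 (SE 0.27, edgeR adjusted p = 0.758) does not separate the groups and so does not check the labels, on which every direction given here rests. Summed Y-linked RNA was low in KO-labelled replicate 4 (10.9 CPM) and WT replicate 3 (6.04 CPM) and lay between 255.7 and 364.6 CPM in the other libraries. All 18 HSC identity markers passed the filter on low counts, with summed levels of 1756 to 2066 CPM in libraries labelled KO, against 2210 to 2465 CPM in WT, and 2 were lower. Megakaryocyte and platelet markers summed to 1401 to 2235 CPM against 5896 to 12630 CPM in WT, with 12 of 16 lower. Mast and basophil markers summed to 346.9 to 1269 CPM against 13.0 to 306.7 CPM in WT, with 2 of 7 tested higher and Tpsb2 at 0 reads. Erythroid markers (1 of 11 lower, Slc4a1 at 0) and granulocyte and monocyte markers (1 of 12 higher, 1 lower) summed to 1777 to 3793 and 625.0 to 779.8 CPM in the libraries labelled KO, against 2010 to 3818 and 764.6 to 898.6 CPM in WT. Lymphoid markers (0 of 8 called, Pax5 and Ncr1 at 0) summed to at most 74.5 CPM against 75.7 CPM in WT, and stromal and endothelial markers (0 of 4 called, Col3a1 and Cdh5 at 0) to at most 68.5 against 61.4 CPM. In sorted bulk RNA, a shift in the number of cells of a type and a shift in RNA per cell cannot be told apart, and the part of these markers in the results below was not tested.

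Across all 14695 tested genes, 332 (2.26%) passed the test, 88 of them higher (0.599%) and 244 of them lower (1.66%) with the label KO. Of the 10 N-glycan genes, 9 passed the filter on low counts and 0 of these passed the test, while 2 had an unadjusted p under 0.05, 1 of them higher, against 14.6% and, for higher ones, 7.42% of all tested genes. DESeq2 and limma voom each called 1, Fut8, higher. Both tools called more genes than edgeR over the same 14695 tested genes. DESeq2 called 352 higher and 514 lower, and limma voom 269 higher and 439 lower. In CPM, groups did not overlap for 1 gene higher and 1 gene lower, against 8.23% and 7.47% of all tested genes. The median log2 fold change of the 9 genes was -0.02, beside 0.03 over all tested genes, with 4 above and 5 below 0.

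**Figure D1:**
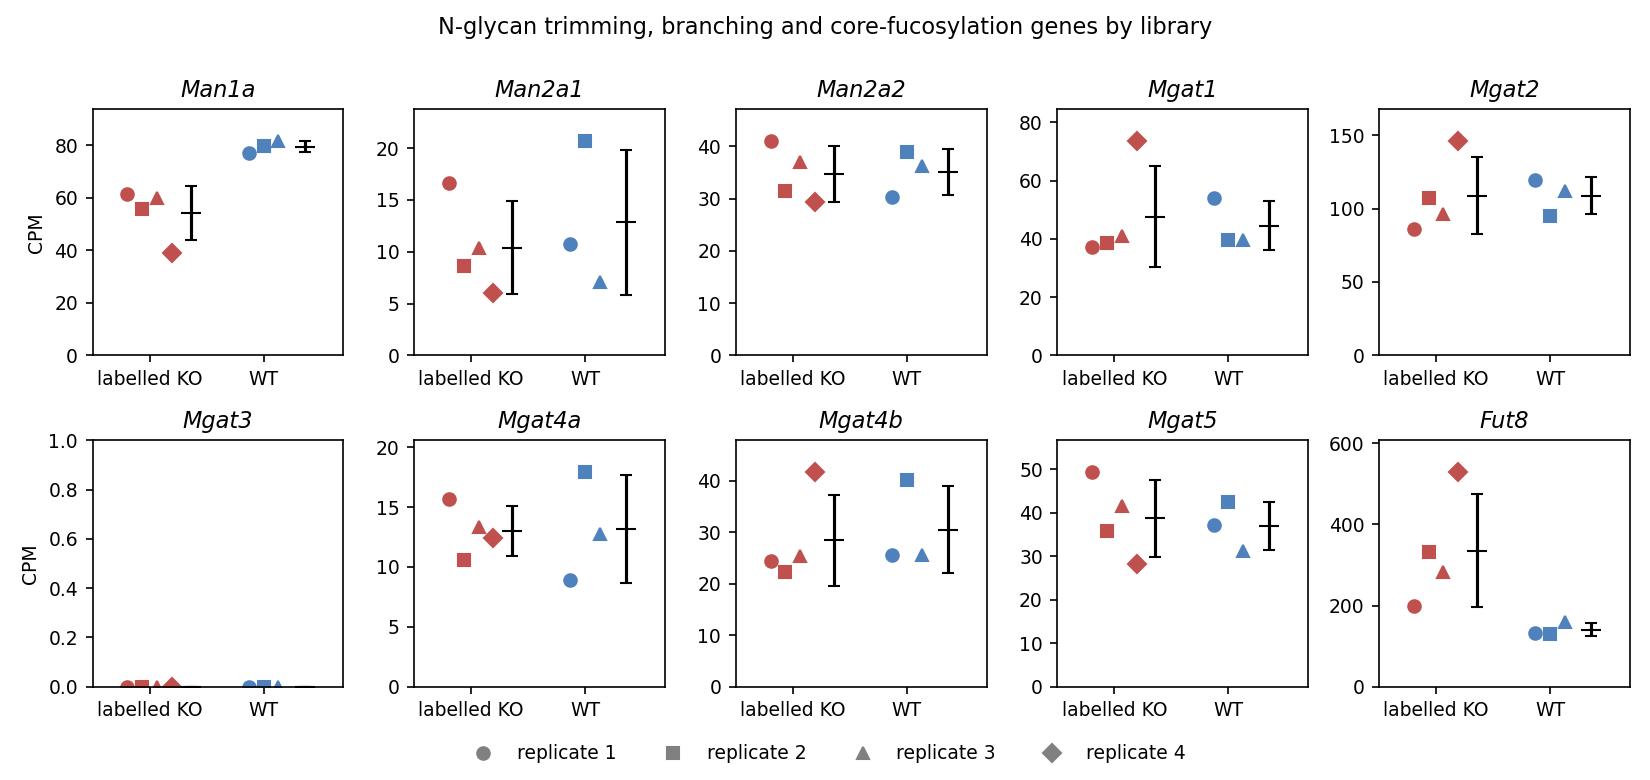
CPM (vertical axis, linear, from 0) of each of the 10 genes in the 4 libraries labelled KO (red) and the 3 WT libraries (blue), marker shape giving the replicate, with mean and SD as black bars. Fut8 is above 198 CPM in all libraries labelled KO and below 160 CPM in WT, Man1a lies lower without overlap, Mgat3 is at 0, and the other 7 genes overlap.

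Man1a (ENSMUSG00000003746, GRCm38 chromosome 10, 53904785 to 54076609, minus strand) encodes a Golgi alpha-mannosidase that trims the mannose-rich glycan ahead of branching. It was at 61.6, 55.96, 59.9 and 39.1 CPM in KO-labelled replicates 1 to 4, against 77.2, 79.9 and 81.6 CPM in WT replicates 1 to 3. The WT libraries lay close together, and KO-labelled replicate 4 was the lowest of all. The mean was 54.2 ± 10.3 CPM across libraries labelled KO (SD, n = 4), against 79.6 ± 2.22 CPM across WT libraries (SD, n = 3). The log2 fold change of -0.56 (SE 0.18) had a 95% interval from -0.95 to -0.16 and missed the threshold in edgeR (adjusted p = 0.172). Its main coding transcript, Man1a-201, carried most of the reads, 1483, 1396, 1520 and 1183 in KO-labelled replicates 1 to 4, against 2164, 1699 and 1773 in WT replicates 1 to 3. These reads are not scaled to library size. In a separate fit over transcripts, the mean of Man1a-201 was 48.1 CPM across libraries labelled KO, against 79.8 CPM across WT libraries. That fit scales the libraries by itself, so these CPM are not on the scale of the gene CPM above.

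Man2a1 and Man2a2 encode the Golgi alpha-mannosidases that act after Mgat1. Man2a1 (ENSMUSG00000024085, chromosome 17, 64600736 to 64755110, plus strand) was at 16.6, 8.61, 10.4 and 6.00 CPM in KO-labelled replicates 1 to 4, against 10.7, 20.7 and 7.11 CPM in WT replicates 1 to 3. Both groups spread widely, and the 95% interval of the log2 fold change, -1.22 to 0.61 around -0.30, was the widest of the 9 genes (edgeR adjusted p = 0.761). In KO-labelled replicate 4, 49.1% of Man2a1 reads fell on Man2a1-202, a retained-intron transcript of 470 nt, against at most 4.16% in any other library.

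Man2a2 (ENSMUSG00000038886, chromosome 7, 80349097 to 80371375, minus strand) was at 41.0, 31.4, 37.0 and 29.3 CPM in KO-labelled replicates 1 to 4, against 30.3, 38.8 and 36.2 CPM in WT replicates 1 to 3. The groups overlapped throughout, with a log2 fold change of -0.02 (95% interval -0.43 to 0.39, edgeR adjusted p = 0.976). In every library more than 90% of its reads were assigned to Man2a2-202, a transcript of 4610 nt that the annotation calls a retained intron, so the coding level of this gene is poorly resolved. Man2a2 lies across Hddc3 on the opposite strand, and the library kit does not mark strand.

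Mgat1 and Mgat2 encode the enzymes that start the first and the second antenna. Mgat1 (ENSMUSG00000020346, chromosome 11, 49244191 to 49263030, plus strand) was at 37.4, 38.5, 41.1 and 73.5 CPM in KO-labelled replicates 1 to 4, against 54.2, 39.6 and 39.6 CPM in WT replicates 1 to 3. KO-labelled replicate 4 stood alone above the rest, and the other libraries labelled KO lay at or near the lower WT values. The log2 fold change was 0.10 (95% interval -0.47 to 0.67, edgeR adjusted p = 0.883).

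Mgat2 (ENSMUSG00000043998, chromosome 12, 69184157 to 69186770, plus strand) was at 85.8, 107.2, 96.4 and 145.8 CPM in KO-labelled replicates 1 to 4, against 119.4, 94.9 and 112.1 CPM in WT replicates 1 to 3. Its means were the same in both groups, 108.8 ± 26.2 CPM across libraries labelled KO (SD, n = 4) against 108.8 ± 12.6 CPM across WT libraries (SD, n = 3). The 95% interval of the log2 fold change ran from -0.44 to 0.44, and its sign turned in 11 of 17 alternative settings. Gm49383 lies across Mgat2 on the opposite strand and was not called (log2 fold change 0.58, edgeR adjusted p = 0.406).

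Mgat3 (ENSMUSG00000042428, chromosome 15, 80173721 to 80215519, plus strand), whose enzyme adds the bisecting GlcNAc, had 0 reads in each of the 7 libraries. A count of 0 allows up to 3 reads, a level of 0.081 to 0.117 CPM in libraries labelled KO, against 0.102 to 0.141 CPM in WT. At this depth its RNA was not detectable in either group, and no fold is given.

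Mgat4a, Mgat4b and Mgat5 encode the enzymes that start the antennae beyond the first pair. Mgat4a (ENSMUSG00000026110, chromosome 1, 37439340 to 37541016, minus strand) was at 15.7, 10.6, 13.4 and 12.4 CPM in KO-labelled replicates 1 to 4, against 8.93, 17.9 and 12.8 CPM in WT replicates 1 to 3. Mgat4b (ENSMUSG00000036620, chromosome 11, 50210890 to 50235103, plus strand) was at 24.4, 22.2, 25.4 and 41.6 CPM in KO-labelled replicates 1 to 4, against 25.6, 40.2 and 25.7 CPM in WT replicates 1 to 3. For Mgat4a the WT libraries spanned the whole range of the libraries labelled KO, and for Mgat4b 1 library in each group stood above the others. The log2 fold changes were -0.02 for Mgat4a (95% interval -0.63 to 0.59, edgeR adjusted p = 0.982) and -0.10 for Mgat4b (95% interval -0.69 to 0.49, edgeR adjusted p = 0.885).

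Mgat5 (ENSMUSG00000036155, chromosome 1, 127205015 to 127488336, plus strand), whose antenna often carries the poly-N-acetyllactosamine chains that galectins bind, was at 49.3, 35.9, 41.5 and 28.3 CPM in KO-labelled replicates 1 to 4, against 37.1, 42.4 and 31.3 CPM in WT replicates 1 to 3. The groups overlapped in CPM, with a log2 fold change of 0.07 (95% interval -0.41 to 0.54, edgeR adjusted p = 0.904). Tmem163, which overlaps Mgat5 on the opposite strand, was lower in the libraries labelled KO (1.94 against 10.2 CPM in WT, log2 fold change -2.40, SE 0.28, edgeR adjusted p = 0.00103). Without strand, its reads and those of Mgat5 cannot be told apart in any sequence that transcripts of both genes hold. Of the 31-base stretches in Mgat5 transcripts, 1.62% occur in transcripts of other genes on either strand.

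**Figure D2:**
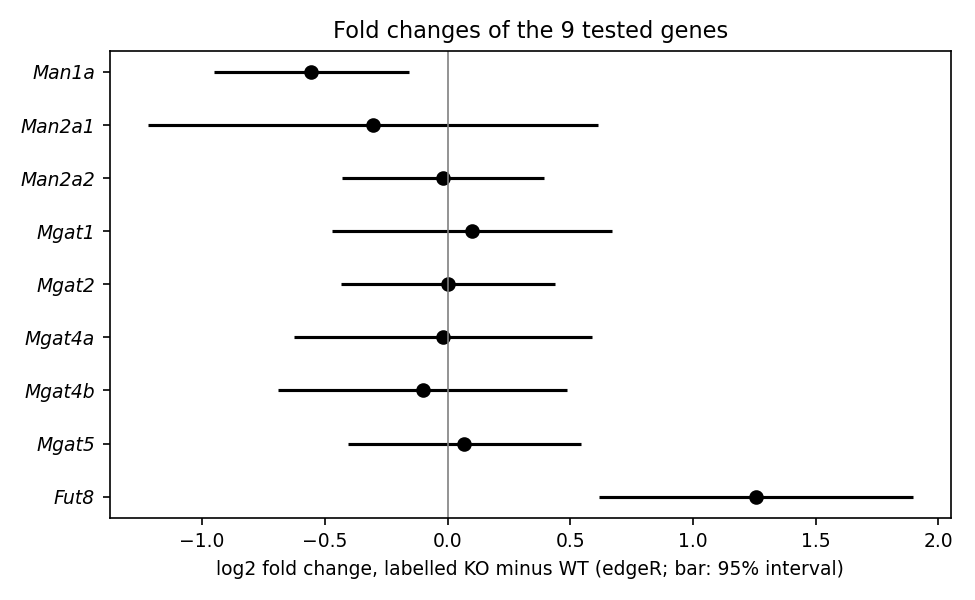
Log2 fold change, libraries labelled KO minus WT (horizontal axis), of the 9 tested genes from the edgeR fit over all genes, with 95% intervals as bars. The interval of Fut8 lies above 0 and that of Man1a below 0, while the other 7 span 0; none passed the adjusted test.

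Expressed per length of transcript (TPM, the deposited unit that corrects for both depth and length), the 9 detected genes had the same order of mean levels in both groups, but without KO-labelled replicate 4 Man2a1 and Mgat4a changed places. Fut8 led with 132.8 ± 65.9 TPM across libraries labelled KO (SD, n = 4), against 51.0 ± 9.42 TPM across WT libraries (SD, n = 3). Mgat2 followed with 54.7 against 46.2 TPM in WT, then Mgat4b with 26.0 against 27.2, Mgat1 with 22.7 against 18.4 and Man1a with 13.2 against 15.8 TPM. The lowest were Man2a2 (8.88 against 7.58 TPM in WT), Mgat5 (6.01 against 4.11), Man2a1 (4.72 against 2.74) and Mgat4a (2.69 against 1.99). The Man2a1 mean rested on KO-labelled replicate 4, at 11.2 TPM, without which it was 2.56 TPM, below the 2.74 TPM of WT, and Mgat4a was at 2.78 TPM. Without that library the means of Mgat1 and Mgat2 were also below WT, at 17.1 against 18.4 TPM and 45.1 against 46.2 TPM in WT. Overlap of the groups was not the same in TPM as in CPM. Man1a overlapped in TPM, at 12 to 14.4 TPM in libraries labelled KO, against 12.8 to 18.3 TPM in WT. Mgat5 did not overlap in TPM, at 5.197 to 6.84 TPM in libraries labelled KO, against 3.88 to 4.33 TPM in WT, and Fut8 did not overlap on either scale. In TPM, 16.2% of all tested genes were higher without overlap and 4.02% lower. Not all steps of this order were free of overlap between libraries. The ranges of Fut8 and Mgat2, Mgat4b and Mgat1, Mgat5 and Man2a1, and Man2a1 and Mgat4a overlapped in both groups. In WT those of Mgat2 and Mgat4b and of Mgat1 and Man1a overlapped too. These ranges set different libraries against each other. Within each library labelled KO, Fut8 was above Mgat2, at 72.55 against 38.6 TPM in the library lowest for both. In WT replicate 1 Fut8 was below Mgat2, at 48.5 against 53.4 TPM, and in the other WT libraries it was above.

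Fut8 (ENSMUSG00000021065, chromosome 12, 77238125 to 77476338, plus strand) was at 198.6, 331.6, 283.7 and 528.0 CPM in KO-labelled replicates 1 to 4, against 132.6, 129.7 and 159.4 CPM in WT replicates 1 to 3. The lowest library labelled KO was above the highest WT library, and the libraries labelled KO also differed 2.66-fold among themselves. It averaged 335.5 ± 139.6 CPM across libraries labelled KO (SD, n = 4), against 140.6 ± 16.4 CPM across WT libraries (SD, n = 3), a coefficient of variation of 41.6% against 11.6% in WT. On the log2 scale the fold change was 1.26 (SE 0.29, 95% interval 0.62 to 1.90), with an unadjusted p of 0.00129 and an adjusted p of 0.0543 in edgeR's quasi-likelihood test. The call depended on the setting: Fut8 passed with DESeq2 (log2 fold change 1.24, adjusted p = 0.000617), with limma voom (1.03, adjusted p = 0.0089), without KO-labelled replicate 1 (1.42, edgeR adjusted p = 0.0148) and without KO-labelled replicate 4 (0.95, edgeR adjusted p = 0.0343), and over 17 alternative settings its adjusted p ran from 0.000617 to 0.20 with the sign the same in all. Among the libraries with Y-linked RNA alone, leaving out KO-labelled replicate 4 and WT replicate 3, the log2 fold change was 1.06 (edgeR adjusted p = 0.0467).

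The 3 protein-coding genes that followed the Fut8 profile over the 7 libraries most closely were picked from 11277 candidates by the root mean square difference of log2 CPM centred on WT. Zfp955b, a zinc finger gene, differed by 0.19, Mettl4, a methyltransferase-like gene, by 0.19, and Kbtbd8, which in human encodes an adaptor of a ubiquitin ligase, by 0.22. Their log2 fold changes were 1.17 for Zfp955b, 1.36 for Mettl4 and 1.34 for Kbtbd8. Because they were chosen for a profile over the same libraries, a difference in this direction was built into the choice and no test is given.

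The annotation divides Fut8 into 7 transcripts. Of these, 5 begin within 1 kb of the gene's start: the protein-coding Fut8-203, Fut8-202 and Fut8-201, and Fut8-204 and Fut8-206, which are annotated as retained introns. The other pair, Fut8-207 and Fut8-205, are processed transcripts with no coding sequence annotated and begin inside the gene, 150.7 and 172.0 kb downstream of its start. RefSeq gives 4 Fut8 start windows on GRCm38.p6, each reaching from 250 bases before to 50 bases after a start. They are shown because the share of Fut8 reads assigned by estimation to the transcripts at these starts differed between the libraries. In the first pair of windows, which lie at the gene's start on the plus strand, capitals mark each CG dinucleotide.

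Window chr12:77237854-77238153, around a RefSeq start 21 bp upstream of the annotated Fut8-203 start: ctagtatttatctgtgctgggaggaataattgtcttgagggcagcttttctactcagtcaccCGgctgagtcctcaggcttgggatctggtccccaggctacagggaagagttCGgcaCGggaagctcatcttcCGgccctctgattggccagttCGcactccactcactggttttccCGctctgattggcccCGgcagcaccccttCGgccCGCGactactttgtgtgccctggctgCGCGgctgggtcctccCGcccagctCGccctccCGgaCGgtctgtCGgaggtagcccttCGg

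Window chr12:77238489-77238788, around a RefSeq start 74 bp upstream of the Fut8-206 start: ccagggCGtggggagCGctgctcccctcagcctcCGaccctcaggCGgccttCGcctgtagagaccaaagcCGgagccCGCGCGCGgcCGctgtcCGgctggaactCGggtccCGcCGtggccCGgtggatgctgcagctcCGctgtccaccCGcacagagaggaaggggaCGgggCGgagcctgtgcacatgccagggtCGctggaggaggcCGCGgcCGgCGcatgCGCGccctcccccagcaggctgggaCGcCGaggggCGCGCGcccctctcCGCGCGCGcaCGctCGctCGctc

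The windows at the gene's start hold 18 CG dinucleotides at 61.7% GC and 39 at 76.3% GC. The median of all 32851 RefSeq mouse windows of this length is 7, with quartiles of 3 and 20, so the first window lies within the quartiles and the second above them. In the next pair, which lie at the internal starts, capitals mark an 81-base run that is identical in both windows.

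Window chr12:77388614-77388913, at the Fut8-207 start: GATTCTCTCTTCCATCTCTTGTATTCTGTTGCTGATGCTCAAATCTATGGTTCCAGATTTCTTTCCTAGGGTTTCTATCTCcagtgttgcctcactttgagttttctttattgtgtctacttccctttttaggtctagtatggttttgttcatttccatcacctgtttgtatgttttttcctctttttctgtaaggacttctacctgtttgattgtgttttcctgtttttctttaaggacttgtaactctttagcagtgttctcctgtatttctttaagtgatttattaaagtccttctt

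Window chr12:77409891-77410190, at the Fut8-205 start: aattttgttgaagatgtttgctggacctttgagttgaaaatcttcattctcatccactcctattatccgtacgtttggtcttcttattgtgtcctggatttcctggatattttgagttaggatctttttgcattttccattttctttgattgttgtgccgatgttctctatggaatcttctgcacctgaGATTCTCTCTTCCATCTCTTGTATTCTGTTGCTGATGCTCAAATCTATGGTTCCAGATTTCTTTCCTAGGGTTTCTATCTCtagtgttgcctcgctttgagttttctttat

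The internal windows hold 0 and 4 CG dinucleotides at 35.3% and 37.7% GC, and 5.43% of all windows hold none. The shared run lies at chromosome 12, 77388614 to 77388694, and again at 77410080 to 77410160. The first exons of the internal transcripts also share sequence with other genes. Of the 159 stretches of 31 bases that Fut8-207 does not share with the transcripts from the gene's start, 47.8% occur in transcripts of 59 other genes, and for Fut8-205 it was 80.1% of 292, in 69 other genes. Reads in these stretches can be assigned to more than 1 gene, which limits the estimates for both internal transcripts. By genome position, 160 of 2079 exonic bases in Fut8-207 and 295 of 2099 in Fut8-205 lie in no other Fut8 transcript. By sequence, 88 of the 159 stretches in Fut8-207 and 221 of the 292 in Fut8-205 occur in no other Fut8 transcript. The rest occur in both internal transcripts, which limits their separation from each other. The division of Fut8 reads between the starts is therefore an estimate, and the use of the starts was not measured directly.

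The transcripts that begin at the gene's start had the higher level in the libraries labelled KO. Together they were at 53.4, 106.4, 88.0 and 218.6 TPM in KO-labelled replicates 1 to 4, against 30.6, 11.6 and 40.0 TPM in WT replicates 1 to 3. The groups did not overlap, and WT replicate 2 was lowest. The internal transcripts together were at 19.2, 13.8, 23.9 and 8.12 TPM in KO-labelled replicates 1 to 4, against 17.9, 31.4 and 21.4 TPM in WT replicates 1 to 3, and here the groups overlapped.

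As a share of Fut8 reads, the internal transcripts held 20.2%, 8.48%, 16.6% and 2.60% in KO-labelled replicates 1 to 4, against 29.0%, 64.7% and 27.6% in WT replicates 1 to 3. The share was below every WT library in each library labelled KO, and WT replicate 2 stood far above the other WT libraries. The difference of means, 11.96% against 40.4% in WT, was -28.4 percentage points and -16.3 points without WT replicate 2. This classing by start was made after the values were seen, so no test is given. Fut8-207 alone held 4.06%, 4.70%, 0% and 2.13% of Fut8 reads in KO-labelled replicates 1 to 4, against 25.5%, 48.2% and 23.8% in WT replicates 1 to 3. Fut8-205 showed no such separation, with 16.1%, 3.78%, 16.6% and 0.466% in KO-labelled replicates 1 to 4, against 3.43%, 16.5% and 3.81% in WT replicates 1 to 3. Both internal transcripts share part of their sequence, so the division of reads between Fut8-207 and Fut8-205 is an estimate too.

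**Figure D3:**
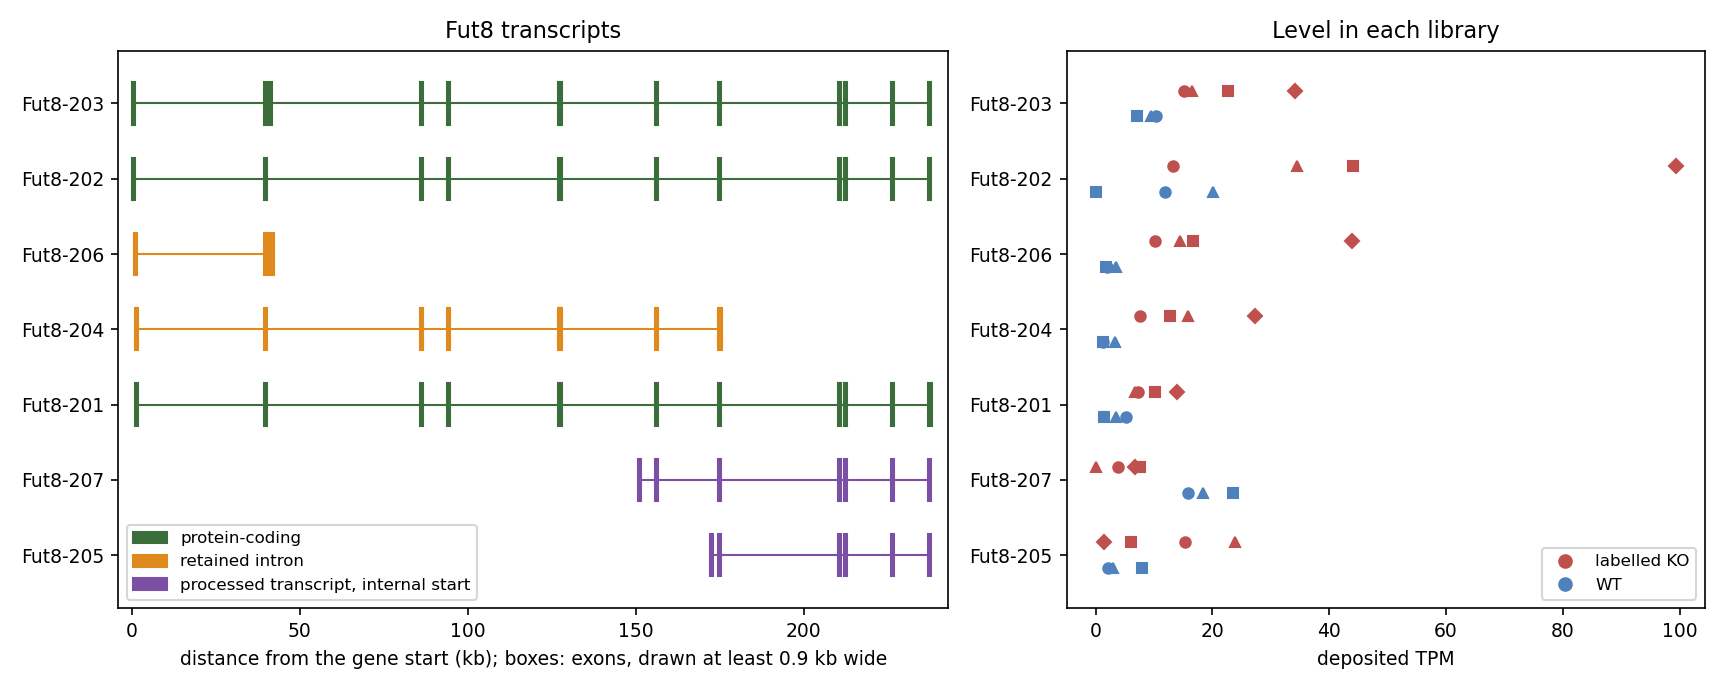
Left, the 7 annotated Fut8 transcripts against distance from the gene's start in kb, with exons as boxes, coloured by transcript type. Right, the deposited TPM of each transcript in each library (red for labelled KO, blue for WT, marker shapes as in the plot of CPM). Fut8-206, Fut8-204, Fut8-203 and Fut8-201 lie higher in all libraries labelled KO, and Fut8-207 lies lower.

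**Figure D4:**
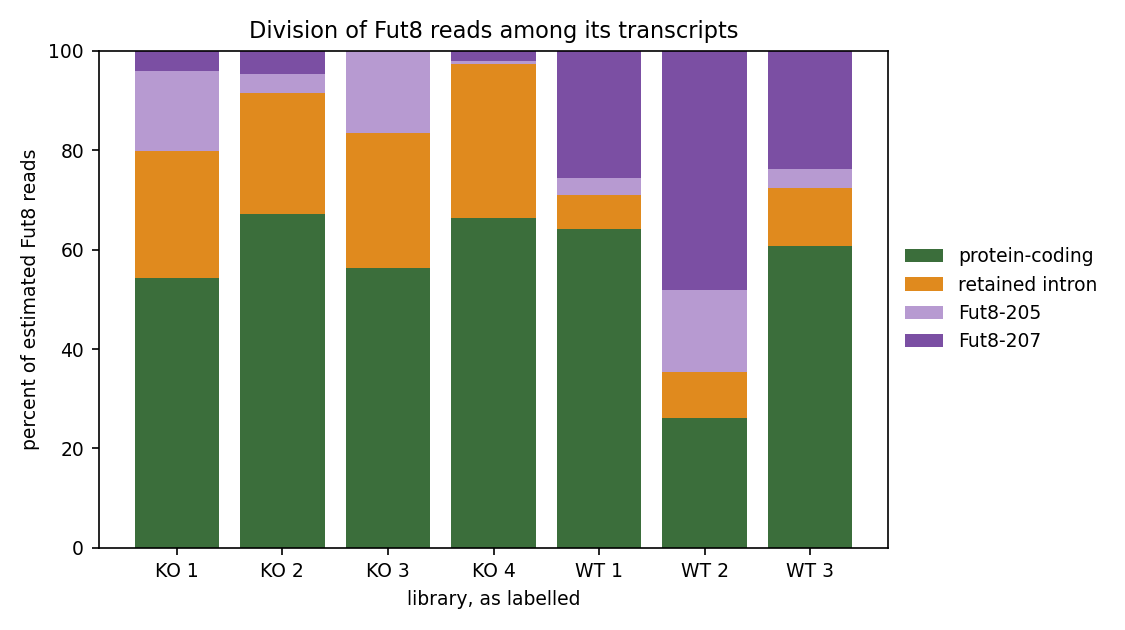
Percent of estimated Fut8 reads (vertical axis) on protein-coding transcripts, retained-intron transcripts, Fut8-205 and Fut8-207 in each library, those labelled KO to the left of WT. Retained-intron transcripts hold 24.4% to 31.1% in libraries labelled KO, against 6.995% to 11.8% in WT, and Fut8-207 holds at most 4.70% in the libraries labelled KO and at least 23.8% in WT.

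The retained-intron transcripts of Fut8 lay apart between the groups. Fut8-206, with 3159 exonic bases that no other Fut8 transcript has, was at 10.1, 16.7, 14.4 and 43.9 TPM in KO-labelled replicates 1 to 4, against 1.92, 1.87 and 3.55 TPM in WT replicates 1 to 3. Fut8-204 was at 7.64, 12.8, 15.8 and 27.3 TPM in KO-labelled replicates 1 to 4, against 1.20, 1.20 and 3.26 TPM in WT replicates 1 to 3. Each library labelled KO lay above all WT libraries for both. Of the 31-base stretches that Fut8-206 alone has among the Fut8 transcripts, 5.37% occur in transcripts of 1039 other genes, and none of those of Fut8-204 do. In an edgeR fit over all 40219 tested transcripts, chosen after the data were seen, Fut8-206 had a log2 fold change of 2.70 (SE 0.48, adjusted p = 0.0776) and Fut8-204 one of 2.72 (SE 0.50, adjusted p = 0.0839). Both passed with DESeq2 (adjusted p of 1.45e-06 and 4.23e-06), and with limma voom Fut8-206 passed (adjusted p = 0.0461) and Fut8-204 did not (adjusted p = 0.0533).

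The fold changes of the coding transcripts Fut8-203 and Fut8-201 were smaller. Fut8-203 was at 15.1, 22.8, 16.4 and 34.1 TPM in KO-labelled replicates 1 to 4, against 10.4, 7.15 and 9.54 TPM in WT replicates 1 to 3 (log2 fold change 0.94, SE 0.25, edgeR adjusted p = 0.21). Fut8-201 was at 7.24, 10.1, 6.74 and 13.9 TPM in KO-labelled replicates 1 to 4, against 5.17, 1.36 and 3.45 TPM in WT replicates 1 to 3 (log2 fold change 1.21, SE 0.40, edgeR adjusted p = 0.311). Both kept the groups apart by level without passing the test. Fut8-202, which has no exonic base of its own, ranged from 13.3 to 99.3 TPM in libraries labelled KO, against 0 to 20.2 TPM in WT, so its estimate rests on reads it shares with the others. Fut8-207 had a log2 fold change of -2.45 with an SE of 1.21 and did not pass (edgeR adjusted p = 0.475). With coding transcripts alone, the Fut8 gene had a log2 fold change of 1.58 (edgeR adjusted p = 0.12). Summed, these transcripts were at 35.6, 76.8, 57.7 and 147.3 TPM in KO-labelled replicates 1 to 4. In WT replicates 1 to 3 they were at 27.4, 8.51 and 33.2 TPM. WT replicate 2, the lowest, had 0 reads assigned to Fut8-202.

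Over all 10 genes, 28 transcripts were tested and 0 passed in the edgeR fit, where 0.425% of all transcripts did (0.149% higher and 0.276% lower). This transcript fit scales the libraries by itself, so its fold changes are not on the scale of the gene fit. Mgat2, with 1 transcript, had a log2 fold change of -0.10 in it and of 0.0002 in the gene fit. Of the 28, 8 had an unadjusted p under 0.05, against 12.1% of all transcripts. DESeq2 called 5 higher (Fut8-203, Fut8-204, Fut8-206, Mgat5-203 and Mgat5-204), where it called 3.09% of all transcripts higher, and 1 lower (Man1a-201), where it called 2.36%. By limma voom 1 was higher, Fut8-206, against 0.164% of all transcripts. As shares of their gene's reads, 5 of 27 transcripts were higher without overlap in the libraries labelled KO, against 9.80% of all transcripts, and 4 were lower, against 6.06%. The higher were Fut8-204, Fut8-206, Man2a2-204, Mgat5-203 and Mgat5-204, all annotated as retained introns. The lower were Fut8-207, Man2a2-202, Mgat4a-201 and Mgat5-201. Of these lower ones, Man2a2-202 is also annotated as a retained intron and held 91.5% to 98.7% of Man2a2 reads. Man2a2-204 had few reads, at most 26.2 in any library labelled KO and 1.66 in any WT library.

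Mgat5 also had a larger share of retained-intron transcripts in the libraries labelled KO, while its total was not called. These transcripts held 8.27%, 8.55%, 5.58% and 19.6% of Mgat5 reads in KO-labelled replicates 1 to 4, against 1.02%, 0.780% and 1.94% in WT replicates 1 to 3. The groups did not overlap. In reads not scaled to library size, Mgat5-204 carried 93.6, 43.2, 33.6 and 114.8 in KO-labelled replicates 1 to 4. In WT replicates 1 to 3 it carried 11.1, 7.07 and 12.6 (log2 fold change 2.40, edgeR adjusted p = 0.208). The coding transcript Mgat5-201 had a log2 fold change of -0.16 in the transcript fit (edgeR adjusted p = 0.847).

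Retained-intron reads were more frequent in the libraries labelled KO as a whole. They made up 5.02%, 4.49%, 4.81% and 5.24% of all reads in KO-labelled replicates 1 to 4, against 3.74%, 4.05% and 3.70% in WT replicates 1 to 3. Of 6881 genes with such transcripts, 17.4% had a share that was higher without overlap in the libraries labelled KO and 1.82% one that was lower. Among the N-glycan genes it was 2 of 7, Fut8 and Mgat5, with 0 lower. The part of this library-wide shift in the values of Fut8 and Mgat5 was not tested.

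**Figure D5:**
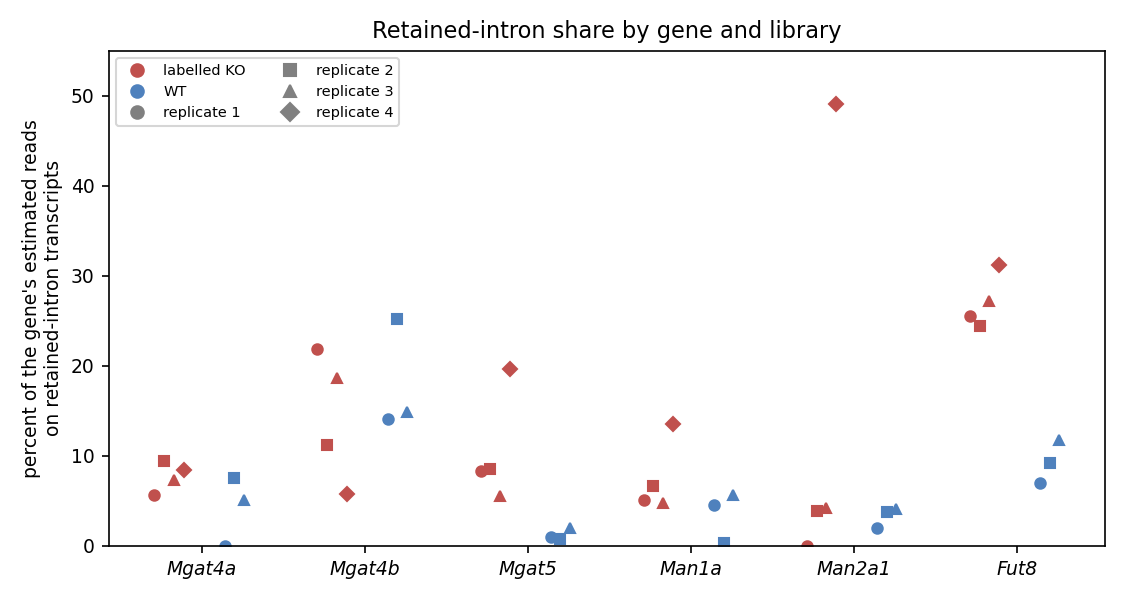
Percent of each gene's estimated reads on retained-intron transcripts (vertical axis) in each library (red, labelled KO; blue, WT), for the 6 genes with such transcripts other than Man2a2, whose share is above 90% in every library. Fut8 and Mgat5 separate the groups, and KO-labelled replicate 4 stands at 49.1% for Man2a1.

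KO-labelled replicate 4 was often the extreme library. Set against the mean of KO-labelled replicates 1 to 3 on the log2 scale, it was higher for Fut8 (0.99), Mgat1 (0.92), Mgat4b (0.80) and Mgat2 (0.60), and lower for Man2a1 (-0.92), Man1a (-0.60), Mgat5 (-0.56) and Man2a2 (-0.31), with Mgat4a at -0.07. The genes above the other libraries have average effective transcript lengths of 1103 to 2643 nt, and those below 3291 to 7287 nt. Over all tested genes the median difference of this library was 0.03 for 10747 genes under 3000 nt, 0.0087 for 2495 genes of 3000 to 4500 nt and -0.20 for 1453 genes over 4500 nt. By this average, which weights transcripts by TPM, Man2a1, Man2a2 and Man1a lie in the middle range, where the median was near 0. The coding transcripts with most of the Man2a1 and Man1a reads, Man2a1-201 and Man1a-201, are longer, at 6991 and 5137 nt. The part of transcript length in these values was not tested.

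The steps around the 10 genes were read from lists of the same pathway. Of 10 other glucosidase and mannosidase genes, 1 passed the test. Edem1, which encodes a mannosidase-like protein that sends misfolded glycoproteins to degradation, was at 24.2, 25.5, 24.3 and 37.3 CPM in KO-labelled replicates 1 to 4, against 56.3, 49.9 and 54.5 CPM in WT replicates 1 to 3. Each library labelled KO lay below all WT libraries. Edem1 passed with a log2 fold change of -0.95 (SE 0.19, edgeR adjusted p = 0.0326), and the call was lost in 6 of the 7 fits that left out 1 library, with adjusted p of 0.0666, 0.117 and 0.11 without KO-labelled replicates 1, 2 and 3, and 0.118, 0.0613 and 0.0963 without WT replicates 1, 2 and 3. The list's median log2 fold change was 0.01, with 5 genes above and 5 below 0.

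Genes that build the mannose-rich precursor on dolichol (22 of 22 tested) and the oligosaccharyltransferase subunits that move it onto proteins (12 of 12 tested) had 0 calls, with medians of -0.02 and -0.15 beside 0.03 over all genes, and 0 genes in either list had an unadjusted p under 0.05. The gene of smallest p was Alg10b, a glucosyltransferase, in the precursor list (log2 fold change -0.60, edgeR adjusted p = 0.365) and Ost4, a small subunit, in the second (-0.34, edgeR adjusted p = 0.54). No call was made by DESeq2 or limma voom for Alg10b and Ost4 either.

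Of the other branching transferases, Mgat4d and Mgat5b were at 0 reads, Mgat4e had 1 read in WT replicate 3, and Mgat4c, at under 1 CPM in every library, had a log2 fold change of -0.46 (edgeR adjusted p = 0.785). The 15 tested genes of antenna extension and capping, B4galt1 among them, had 0 calls and a median of 0.05, with an unadjusted p under 0.05 for 2 higher and 1 lower. Fut7, which adds fucose to sialylated antennae in selectin ligands, was at 12.5, 20.9, 14.2 and 39.9 CPM in KO-labelled replicates 1 to 4, against 8.05, 3.51 and 9.23 CPM in WT replicates 1 to 3. The groups did not overlap, and the difference of 1.66 on the log2 scale (SE 0.46) missed the threshold in edgeR (adjusted p = 0.11) and passed with DESeq2 (1.64, adjusted p = 0.00539).

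Fut8 draws on GDP-fucose and the branching enzymes on UDP-GlcNAc. The 6 genes of GDP-fucose supply had 0 calls, 0 with an unadjusted p under 0.05, and a median of 0.08. Gmds and Tsta3, which make GDP-fucose from GDP-mannose, had log2 fold changes of 0.02 (95% interval -0.43 to 0.46, edgeR adjusted p = 0.976) and 0.01 (95% interval -0.32 to 0.34, edgeR adjusted p = 0.98), and were named after their values were seen. Slc35c2, the gene of smallest p in this list, was at 0.44 (edgeR adjusted p = 0.59). The 10 genes of UDP-GlcNAc supply had 0 calls and a median of -0.0017, with 1 gene under an unadjusted p of 0.05, Pgm3, a phosphomutase of that route, at a log2 fold change of 0.87 (edgeR adjusted p = 0.318). Of the 6 other fucosyltransferase genes tested, 0 passed, and an unadjusted p under 0.05 was found for Fut7, of smallest p, and Fut4 (log2 fold change -0.96, edgeR adjusted p = 0.307); the list median was -0.05. Fut7 was the 1 gene of these lists that DESeq2 called higher.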

How the data were processed

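RNA was prepared with the SMART-Seq v4 and ThruPLEX kits and sequenced as paired reads on a HiSeq2500, per the labels' protocols. The submitters' processing notes name cutadapt, Salmon 0.11.2 and mm10; neither the transcript set nor the strand setting is stated there. The authors deposited, per transcript, estimated counts (which need not be whole), TPM values normalized by Salmon for length and depth, and effective lengths.

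Of 112092 transcripts, 111787 matched the GENCODE M21 annotation of GRCm38 without their version, and the 305 others held 0.0836% to 0.123% of reads. Estimated counts were summed per gene and rounded, and tested with edgeR 4.0.16 (R 4.3.3): quasi-likelihood test, TMM scaling, filterByExpr, and Benjamini-Hochberg adjustment over 14695 genes at 0.05. CPM are scaled to TMM-adjusted library sizes; intervals are at 95%. Floors of 3 reads cover counting error only, since PCR reads carry no molecular identifiers. Alternatives were upper quartile or RLE scaling, no filter on counts, a stricter filter (1 CPM in 3 libraries and 50 reads), DESeq2 1.42.0, limma 3.58.1 voom with quality weights, a length offset, coding transcripts only, the replicate number as a block, each library left out, and KO replicate 4 with WT replicate 3 left out. The same replicate number did not mark similar libraries (correlations of deviations -0.05, -0.12 and -0.04), so groups were compared unpaired. No 2 libraries of a group agreed within sampling noise.

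The named genes are the 10 genes, B4galt1, each list's called genes or else its gene of smallest p, and the 3 protein-coding genes (mean log2 CPM of at least 1) most like the gene of smallest p. The genes and lists were chosen with earlier results of these data known. RefSeq start windows (GRCm38.p6) matched 7 of the 10 genes.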

Additional observations from a re-analysis of the deposited data

Results flagged for a closer look

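In groups of 4 libraries, 24 quantities were examined for a single library far from the rest (Dixon's criterion), which chance meets in about 1 of 20 groups, and 4 met it, all in KO-labelled replicate 4. Mgat1 was at 73.5 CPM there, against 37.4 to 41.1 CPM in KO-labelled replicates 1 to 3. Mgat4b was at 41.6 CPM, against 22.2 to 25.4 CPM in the others. Edem1 was at 37.3 CPM, against 24.2 to 25.5 CPM in the others. The retained-intron share of Man2a1 reads was 49.1%, against 0% to 4.16% in the others.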

How the results depend on the processing

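The call of Fut8 rested on the setting and its direction did not. Its log2 fold change of 1.26 passed the test at 1.21 with upper quartile scaling (adjusted p = 0.0426), 1.25 with no filter (0.0272), 1.24 with a stricter filter (0.0409), 1.24 with DESeq2 (0.000617), 1.03 with limma voom (0.0089) and 1.06 without KO-labelled replicate 4 and WT replicate 3 (0.0467), each of which took the number of the 10 genes called higher from 0 to 1; leaving out each library gave 0.95 to 1.42 and 0 to 1 called. It did not pass with RLE scaling, the length offset, coding transcripts only, or without KO-labelled replicate 2 or 3 or any 1 WT replicate (adjusted p up to 0.20). No setting called any of the 10 genes lower, and Man1a kept its sign in all 17 (-0.64 to -0.40, adjusted p of 0.0657 to 0.435). Signs of Mgat1, Mgat2, Mgat4a, Mgat4b, Mgat5, Man2a1 and Man2a2 turned in some settings, with 0 calls; Man2a2 could not be fitted on coding transcripts alone.

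Of all genes, 88 were higher and 244 lower, against 352 and 514 with DESeq2, 269 and 439 with limma voom, 215 and 251 with the length offset, and 30 to 130 and 157 to 279 with each library left out. Genes of the pathway lists called higher went to 1 with DESeq2 and with the length offset, in place of 0, and those called lower ran from 0 to 1 with each library left out; the cause was not tested. The internal-start share of Fut8 differed by -28.4 points (-32.6 as a share of TPM, -34.9 to -16.3 with each library left out).

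With the replicate number as a block, 58 genes were higher and 182 lower, 0 of the 10 genes were called, and Fut8 was at 0.92 (adjusted p = 0.0782); the numbers do not pair the libraries. Depth limits Mgat3, where 0 reads allow up to 0.141 CPM.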
